A study of Homo sapiens with 3 samples.

Results

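The genes described here are 41 genes of the G2 to M part of the cell cycle, measured on 3 two-colour oligonucleotide arrays. They were chosen by name, and every feature whose platform annotation gives a single symbol from that list was used. Of the 41 genes, 40 had at least 1 feature and 24 had a value on all 3 arrays, out of 12550 tested genes with such values. UBE2C had no feature, and 16 genes had a value on only 1 or 2 arrays. Each array compared MCF10A cells stably carrying an obscurin shRNA (obscurin shRNA-2, labelled with Cy5) with MCF10A cells stably carrying a scrambled control shRNA (control shRNA-1, labelled with Cy3). MCF10A is an immortalised, non-tumorigenic human breast epithelial line, and obscurin is a giant cytoskeletal signalling protein. Both cultures were held in 1.5 ug/mL puromycin and both had received 150 uM etoposide, a drug that traps topoisomerase II on broken DNA, for 48 hours, so no comparison with unexposed cells is made. The labels give 1 shRNA per arm and do not say whether the cells were a clone or a pool.

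Entry into mitosis is driven by cyclin B bound to CDK1, which CDC25 phosphatases activate by removing inhibitory phosphates. During mitosis, the spindle checkpoint proteins hold back the anaphase-promoting complex (APC/C), a ubiquitin ligase, until the chromosomes are attached to the spindle, and APC/C with CDC20 then marks securin and cyclin B for destruction. DNA breaks made by drugs such as etoposide activate checkpoints that can arrest cells in G2. Many genes of this programme are transcribed late in the cell cycle through a short promoter element, the cell cycle genes homology region (CHR), bound by the DREAM and MuvB complexes, often with CCAAT boxes bound by NF-Y.

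Promoters of 34 of the 41 genes, 22 of them among the 24 measured, were found by symbol in a RefSeq table (GRCh38.p14) of windows with 250 bases before and 50 after a gene's start. The CHR letters TTTGAA, on either strand, stood in 24 of 44 windows of the listed genes (54.5%), compared with 5324 of 35116 windows of all genes (15.2%). The letters CCAAT, on either strand, stood in 34 of 44 windows (77.3%), compared with 34.6% of all windows. Several windows can belong to 1 gene and overlap. A match shows that the letters are present, not that a factor binds there. Only these exact letters were searched, so a window without a match could still hold a variant of them. The windows of 4 genes follow, from 250 bases before to 30 after the start, with the CHR and CCAAT letters in capitals. UBE2S and MAD2L1 had the lowest log2 ratios of the 24 genes, and BUB1 and MKI67 lay above the array median on every array. In MKI67 the second CHR overlaps a CCAAT box read from the other strand by 1 letter, so both run together in capitals.
UBE2S (chr19:55407759-55408038, minus strand): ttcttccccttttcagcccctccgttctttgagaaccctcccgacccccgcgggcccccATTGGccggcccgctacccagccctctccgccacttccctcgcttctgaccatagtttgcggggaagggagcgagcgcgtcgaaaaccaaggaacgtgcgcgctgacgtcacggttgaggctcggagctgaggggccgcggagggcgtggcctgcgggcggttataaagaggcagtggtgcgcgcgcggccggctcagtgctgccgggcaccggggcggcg
MAD2L1 (chr4:120066819-120067098, minus strand): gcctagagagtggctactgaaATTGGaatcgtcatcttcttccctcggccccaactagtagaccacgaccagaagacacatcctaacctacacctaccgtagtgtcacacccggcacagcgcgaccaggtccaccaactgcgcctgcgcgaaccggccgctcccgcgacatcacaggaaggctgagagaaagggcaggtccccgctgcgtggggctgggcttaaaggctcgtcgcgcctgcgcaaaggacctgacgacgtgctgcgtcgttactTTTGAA
BUB1 (chr2:110678034-110678313, minus strand): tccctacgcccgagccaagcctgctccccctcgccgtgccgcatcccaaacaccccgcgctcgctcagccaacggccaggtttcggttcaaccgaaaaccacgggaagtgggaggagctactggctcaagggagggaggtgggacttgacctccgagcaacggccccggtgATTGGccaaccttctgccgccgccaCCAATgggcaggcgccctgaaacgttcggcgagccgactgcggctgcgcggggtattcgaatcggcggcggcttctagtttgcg
MKI67 (chr10:128126394-128126673, minus strand): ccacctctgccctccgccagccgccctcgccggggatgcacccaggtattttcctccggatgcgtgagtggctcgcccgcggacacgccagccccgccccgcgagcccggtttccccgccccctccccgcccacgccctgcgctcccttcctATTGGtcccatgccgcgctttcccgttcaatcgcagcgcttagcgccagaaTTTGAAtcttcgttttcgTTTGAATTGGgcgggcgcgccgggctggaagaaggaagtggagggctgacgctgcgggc
The UBE2S and BUB1 windows hold 0 CHR matches, the MAD2L1 window holds 1 and the MKI67 window 2. Across the measured genes with a window, the 15 with a CHR match had a median of the mean log2 ratios of 0.15 (range -3.45 to 5.89, 9 of 15 above 0), and the 7 without had -0.64 (range -3.61 to 0.63, 1 of 7 above 0, which was BUB1). Over all tested genes the median was -0.61, with 31.6% above 0. The difference between genes with and without a match was not tested, and BUB1 changed sign with the place of the annotation.

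The authors deposited 1 log2 ratio per feature and array, and these are given here relative to each array's median over all features, so that 0 marks that median (1.49, 1.28 and 1.39 as deposited on arrays 1, 2 and 3). A positive value likely means more RNA in obscurin shRNA cells than in control shRNA cells, as the labels enter the obscurin shRNA cells as channel 1, but which channel was divided by which is not stated. The dyes were not swapped on any array, so dye and shRNA cannot be told apart. A zero point of the values is not given in the sources used here. Each array's highest value lay 16.61, the log2 of 100000, above its most repeated value, so the most repeated value may stand for a ratio of 1. The tested genes had medians of -0.47, -0.48 and -0.48 relative to the same array medians, so a gene at 0 on this scale lay above most genes. Features also clustered in a narrow peak, with 39.7%, 36.2% and 38.9% of them within 0.5 of the array's most repeated value, which lay 0.57, 0.69 and 0.61 above the array median. Ranks of features on arrays 2 and 3 correlated at 0.532, and those of array 1 at 0.342 with array 2 and 0.267 with array 3, as a description. Having 3 arrays limits the precision.

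The match between values and gene names was not borne out everywhere. On 235 transcripts annotated to at least 10 features each, the features of a transcript agreed better when each value was taken from 170 features (1 feature row) earlier in 10 of 15 stretches of the feature list (5 stretches on each of 3 arrays), and better at their own place in 5. Names below are those at the feature's own place, and the values 1 feature row earlier are given where they bear on a gene. The better place was that with the higher intraclass correlation of ranks, which reached at most 0.513. In stretch 3 of array 3 it was 0.021 at the own place and 0.086 earlier, weak at either place. That stretch holds the only features of BUB1, PTTG1, HMMR, ANLN, CDC20, AURKA and KIF2C. A better place is thus a ranking of 2 places and does not show that the names are right there.

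No G2 to M gene differed between obscurin shRNA and control shRNA cells past the threshold. With limma and Benjamini-Hochberg adjustment over all tested genes, 0 of 24 were called lower and 0 higher, and of all 12550 tested genes 0% were called lower and 0% higher. At an unadjusted limma p under 0.05, 3 of 24 (12.5%) lay lower, which were UBE2S, MAD2L1 and CENPE, beside 22.8% of all tested genes, and 0 lay higher, beside 0.829%. A 1-sample test without moderation also called 0 of the 24, beside 0.00797% of tested genes, which was 1 gene, on the lower side. The smallest adjusted p among the 24, 0.0524 by limma for UBE2S, was also the smallest of all tested genes and was shared by 514 of them. In RNA of whole cultures, fewer cells in G2 or mitosis and less RNA of these genes per cell cannot be told apart.

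As a group, the 24 genes lay near the array medians, a position that depended on the zero point. Their mean log2 ratios had a median of -0.04, beside -0.61 for all tested genes, and 11 of 24 (45.8%) had a mean above 0, beside 31.6% of tested genes. Of the 24 genes, 4 (16.7%) were above the array median on every array, beside 15.7% of tested genes, and 4 (16.7%) were below it on every array, beside 33.8%. The 4 above were MKI67, BUB1, CDC25C and BIRC5, and the 4 below were UBE2S, MAD2L1, CENPE and PLK1. With arrays centred on the most repeated value, the means of MKI67, BUB1, CDC25C and BIRC5 were -0.02, 0.00, -0.14 and -0.48. The place of the annotation bears on 3 of the 4 above: with each stretch at its better place BUB1 had a mean of -1.12 and CDC25C of -0.25, and MKI67 had 3.09 and 0.28 on arrays 1 and 3 and no value on array 2. By array, the median of the 24 was 0.20, 0.24 and -0.31 on arrays 1, 2 and 3, so it changed sign between arrays. The median was -0.13 without array 1, -0.18 without array 2 and 0.14 without array 3. Relative to the tested genes' own medians it was 0.43, with arrays centred on the most repeated value -0.67, with top values dropped -0.37 and as deposited 1.34.

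**Figure D1:**
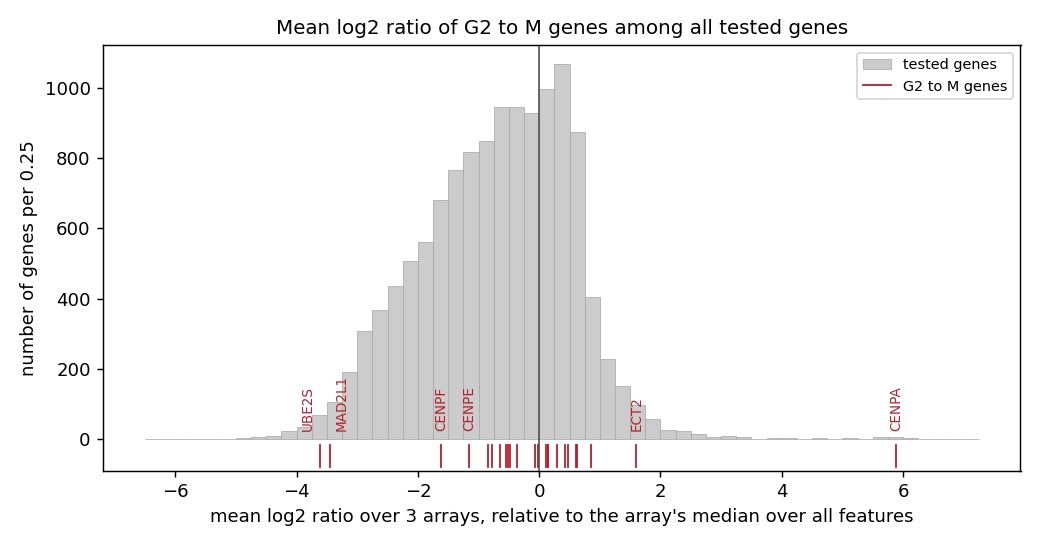
Histogram of the mean log2 ratio over 3 arrays for all 12550 tested genes (bars, number of genes per bin of 0.25), with the 24 G2 to M genes as red ticks under the axis. UBE2S at -3.61 and MAD2L1 at -3.45 lie in the lower tail, most other ticks lie between -1 and 1, and CENPA at 5.89 rests on array 2.

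Spindle checkpoint and APC/C genes held the widest contrast of the 4 classes compared. UBE2S, the ubiquitin-conjugating enzyme that extends ubiquitin chains on substrates of APC/C, had log2 ratios of -4.00, -3.07 and -3.78 on arrays 1, 2 and 3, the lowest mean of the 24 genes. Its mean was -3.61 ± 0.38 (SE, 3 arrays, 95% interval -4.67 to -2.56, limma adjusted p = 0.0524). All 3 arrays placed it far below the array median, at the 0.9th percentile of tested genes by mean. MAD2L1, the checkpoint protein that inhibits CDC20 at unattached kinetochores, had -4.24, -2.37 and -3.74. Its mean was -3.45 ± 0.51 (SE, 95% interval -4.86 to -2.03, limma adjusted p = 0.0541), also low on every array. UBE2S and MAD2L1 were the 2 of 24 genes (8.33%) below -2 on every array, beside 6.29% of tested genes.

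The UBE2S value did not rest on a single feature. Of its 3 features, the first had -4.28, -2.61 and -3.03 on arrays 1, 2 and 3, the second had no value on array 1 and -3.16 and -3.04 on arrays 2 and 3, and the third had -3.71, -3.45 and -5.26. All 8 values lay below -2. Tested feature by feature with limma over the 23308 features with a value on all arrays, both UBE2S features with such values were past the threshold on the lower side (adjusted p = 0.0386 and 0.0339), as was the 1 feature of MAD2L1 (adjusted p = 0.0408). The share of G2 to M features so called, 5 of 47 (10.6%), was close to that of all features tested, 11.2%. On the higher side it was 0 of 47, beside 0.0472%. The other 2 features called lower belonged to CENPF and CDK1. The CDK1 feature, annotated through another transcript record than the rest, had -2.56, -2.87 and -2.99. This CDK1 feature lay in a stretch where the earlier row agreed better on all 3 arrays, and there it had 0.31, 0.55 and 0.25. Taken 1 feature row earlier, UBE2S had a mean of -2.10 (adjusted p = 0.0744) and MAD2L1 -2.56 (adjusted p = 0.0909), so the neighbouring places were low too. The MAD2L1 feature lay in a stretch where the earlier row agreed better on all 3 arrays. Of 17 other settings, UBE2S passed the limma threshold in 4 and MAD2L1 in 3, and both stayed below 0 in all 17. UBE2S and MAD2L1 passed with arrays centred on the most repeated value, where 17.2% of tested genes were called lower, with only features valued on all arrays (10%) and with array weights (7.45%), and UBE2S with each stretch at its better place (5.94%).

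The other checkpoint genes had means from -0.78 to 0.63, and the sign of 3 of the 4 depended on the place from which values were taken. BUB1, the kinase that recruits checkpoint proteins to kinetochores, had 0.99, 0.32 and 0.57, above the median on every array. Its mean was 0.63 ± 0.36 (SE, limma adjusted p = 0.346), and 0.00 with arrays centred on the most repeated value. Its feature lay in a stretch better 1 row earlier on all 3 arrays, and there it had 0.52, -2.21 and -1.68. BUB1B, the BubR1 component of the checkpoint complex that binds CDC20, had -0.96, 1.00 and 0.41, and its mean of 0.15 was -0.27 without array 2, 0.71 without array 1 and 0.02 without array 3. Its feature also lay in a stretch better 1 row earlier on all 3 arrays, and there it had -2.14, -0.75 and -1.59, below the median on every array. BUB3, their shared binding partner, had -1.30, -1.43 and 1.20, with a mean of -0.51 ± 0.69 that was -0.11 without array 1, -0.05 without array 2 and -1.36 without array 3. PTTG1, securin, the separase inhibitor destroyed at anaphase, had 0.55, -2.07 and -0.82, with a mean of -0.78 that was -1.44 without array 1 and -0.13 without array 2. Its feature lay in such a stretch too, and 1 row earlier it had 0.69, 0.22 and 0.41, above the median on every array. BUB1B, BUB3 and PTTG1 thus had both signs among their arrays at their own place, while 1 row earlier BUB1B lay low and PTTG1 high on every array. In the stretch of BUB1 and PTTG1, agreement on array 3 was weak at either place. The 6 measured genes of this class had a median of -0.64, beside -0.61 for all tested genes. By mean 2 lay above and 4 below the array median (33.3% above, beside 31.6% of tested genes). The class median was -1.43 when values were taken 1 row earlier.

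Cyclin and CDK genes had means from -0.64 to 0.86, without a call. CDK1, the mitotic kinase, had -0.62, 0.36 and 0.04, with a mean of -0.07 ± 0.39 (SE, 95% interval -1.14 to 0.99) that was 0.20 without array 1. CCNB2, a B-type cyclin, had 0.56, 0.40 and -1.01, with a mean of -0.02 ± 0.48 that was 0.48 without array 3. CCNA2, the A-type cyclin of S phase and G2, had 0.95, -0.63 and -1.76, with a mean of -0.48 ± 0.64 that was 0.16 without array 3 and -1.19 without array 1. Each of these 3 genes lay on either side of the median depending on the array. CDC25C, a phosphatase that activates CDK1 at mitotic entry, had 0.43, 0.84 and 0.18, above the median on every array, with a mean of 0.48 ± 0.36 (limma adjusted p = 0.437) that was -0.25 with each stretch at its better place. CDC25A, the related phosphatase that also acts at entry into S phase, had -1.24, 0.16 and -0.84, with a mean of -0.64 ± 0.44. CKS1B, a small CDK-binding subunit, had 2.89, -0.30 and 0.00, so its mean of 0.86 ± 0.79 rested on array 1 and was -0.15 without it. The 6 measured genes had a median of -0.04 (1.34 as deposited and -0.67 with arrays centred on the most repeated value). By mean 2 lay above and 4 below (33.3% above, beside 31.6% of tested genes). Their medians were 0.49, 0.26 and -0.42 on arrays 1, 2 and 3.

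Kinesin genes were all below 0 by mean (0 of 3 above, beside 31.6% of tested genes), without a call. CENPE, a kinesin that moves chromosomes to the spindle equator, had -1.41, -1.45 and -0.62, below the array median on every array. Its mean was -1.16 ± 0.38 (SE, 95% interval -2.21 to -0.11), with an unadjusted limma p of 0.0371 and an adjusted p of 0.18, and it was 0.02 when values were taken 1 feature row earlier. Its features had medians of -0.28, -1.72 and -0.26 on arrays 1, 2 and 3, and the array 1 average held 1 feature at -7.40. With only features valued on all arrays, the CENPE mean was -0.48 (limma adjusted p = 0.443). KIF11, the motor that separates the spindle poles, had 0.50, -1.48 and -0.13, with a mean of -0.37 ± 0.53 that was 0.19 without array 2. KIF20A, a kinesin of the central spindle, had 0.32, 0.15 and -2.12, with a mean of -0.55 ± 0.64 that was 0.23 without array 3. For both, a single array set the sign. The 3 kinesins had a median of -0.55, beside -0.61 for all tested genes. It was -0.99 without array 1, -0.90 without array 2 and 0.02 when values were taken 1 feature row earlier.

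Cytokinesis genes were all above 0 by mean (3 of 3, beside 31.6% of tested genes), also without a call. ECT2, the exchange factor that activates RHOA at the cleavage site, had 4.81, 0.42 and -0.42. Its array 1 value held 1 feature at 17.18, the highest value of that array, which 35 features shared, so its mean of 1.60 ± 1.19 became 0.00 without array 1 and -0.46 with top values dropped. ANLN, the scaffold anillin of the contractile ring, had 0.32, -0.09 and 0.67, with a mean of 0.30 ± 0.36. Its only feature lay in a stretch better 1 row earlier on all 3 arrays. There it had 0.82 and -3.56 on arrays 1 and 2 and no value on array 3. PRC1, which bundles microtubules of the central spindle, had -0.31, 1.32 and -0.67, with a mean of 0.11 ± 0.54 that was -0.49 without array 2. The 3 genes had a median of 0.30 over their means, and of 0.32, 0.42 and -0.42 on arrays 1, 2 and 3. With arrays centred on the most repeated value the class median was -0.32, so its direction followed the zero point. The 4 classes thus had medians of -0.64 for checkpoint and APC/C, -0.04 for cyclin and CDK, -0.55 for kinesin and 0.30 for cytokinesis genes, while arrays of a single gene differed by a median of 1.78 between highest and lowest. Leaving out 1 array moved the class medians to between -1.06 (without array 3) and -0.20 (without array 2) for checkpoint and APC/C, -0.26 (without array 2) and 0.32 (without array 3) for cyclin and CDK, -0.99 (without array 1) and -0.49 (without array 3) for kinesin, and 0.29 (without array 1) and 0.51 (without array 3) for cytokinesis genes.

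**Figure D2:**
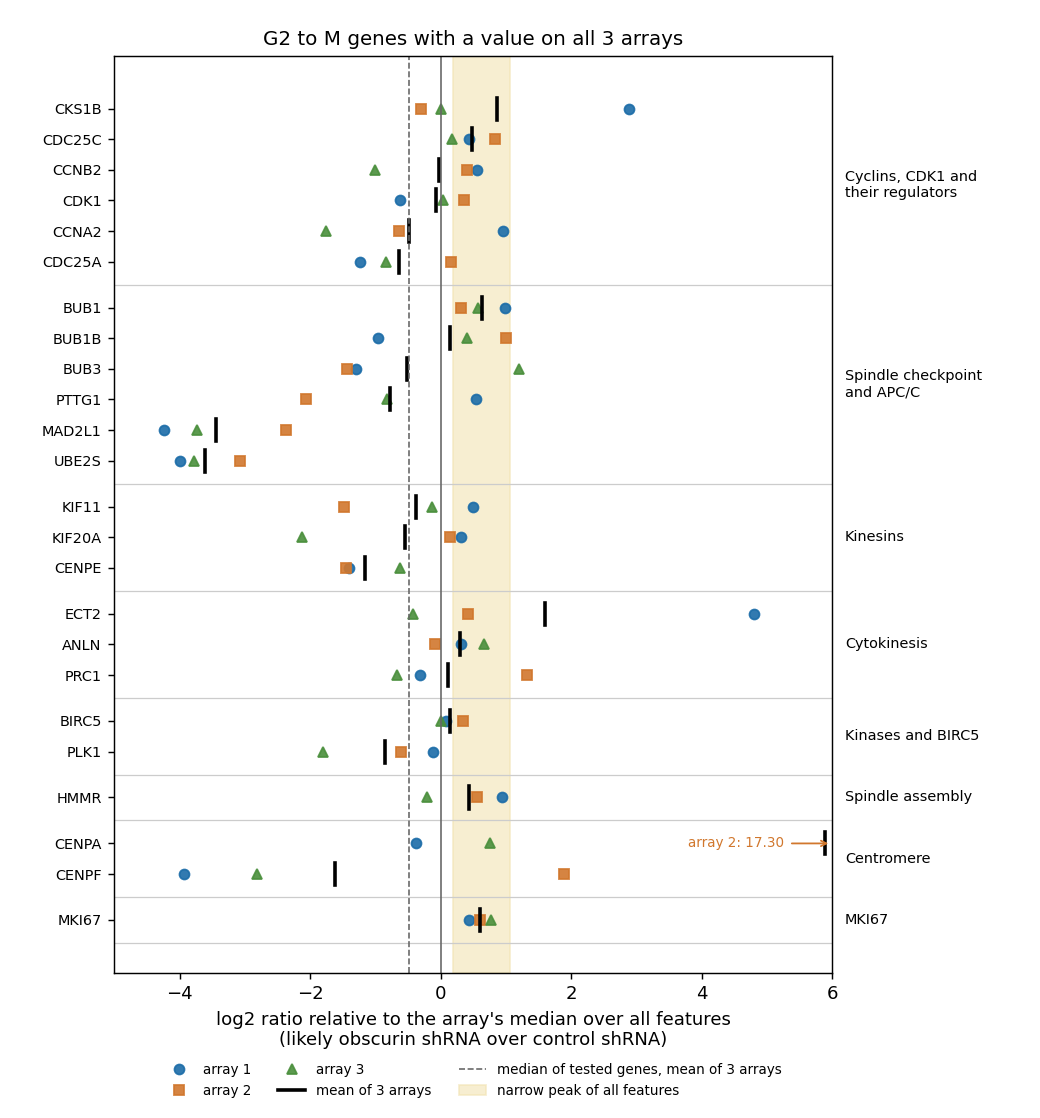
Log2 ratio relative to the array's median over all features for the 24 G2 to M genes with a value on all 3 arrays, by class from top to bottom. Points are arrays 1, 2 and 3, black bars their mean, the dashed line the tested genes' median (mean of 3 arrays), and the shaded band the narrow peak of all features. UBE2S and MAD2L1 lie left of -2 on every array, MKI67, BUB1 and CDC25C lie right of 0 on every array, and CENPA on array 2 (17.30) lies outside the axis.

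Among the measured genes with 1 feature, MKI67 varied least between arrays (SD 0.18). MKI67, the proliferation marker Ki-67 that coats mitotic chromosomes, had 0.43, 0.60 and 0.78, with a mean of 0.61 ± 0.34 (SE, 95% interval -0.33 to 1.54, limma adjusted p = 0.34). These values lay inside the narrow peak of all features, and the mean was -0.02 with arrays centred on the most repeated value. The MKI67 feature lay in a stretch better 1 row earlier on all 3 arrays, and there it had 3.09 and 0.28 on arrays 1 and 3 and no value on array 2, so the small spread is that of values at its own place. BIRC5, survivin, a subunit of the chromosomal passenger complex, had 0.08, 0.34 and 0.01 as averages of up to 9 features, with a mean of 0.14 ± 0.34. PLK1, the polo-like kinase, had -0.12, -0.61 and -1.81, with a mean of -0.85 ± 0.48 (limma adjusted p = 0.346) that was -0.37 without array 3. Its 2 features disagreed, with 0.38, 0.78 and 0.73 for the first and -0.62, -2.01 and -4.34 for the second. HMMR, a spindle-associated protein, had 0.94, 0.56 and -0.21, with a mean of 0.43 ± 0.41 that was 0.17 without array 1 and 0.75 without array 3. Its feature lay in a stretch better 1 row earlier on all 3 arrays, where the mean was -0.02.

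The centromere genes were the most scattered. CENPA, the histone H3 variant of centromeres, had -0.38, 17.30 and 0.76 from 1 feature. The array 2 value is the highest of that array, shared by 51 features, and the mean of 5.89 ± 4.03 was 0.19 without array 2. CENPF, a kinetochore-associated protein, had -3.94, 1.89 and -2.81, with a mean of -1.62 ± 1.30 that was -3.38 without array 2 and -0.46 without array 1. Its array 2 value averaged 6.47 for 1 feature and -2.68 for the other. The feature with a value on every array had -3.15, -2.68 and -2.81. It lay in a stretch that agreed better 1 row earlier on every array, and 1 row earlier it had no value on array 1 and 3.12 and 6.77 on arrays 2 and 3.

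The 16 genes without a value on every array were not tested. TPX2, an activator of Aurora A, was low where measured, at -2.37 and -3.61 on arrays 2 and 3. NEK2, a centrosomal kinase, was high where measured, at 1.98 and 0.88 on the same arrays. The Aurora kinases had 1 value each, 1.98 for AURKA on array 3 and 1.22 for AURKB on array 2. CCNB1, the main mitotic cyclin, had 0.48 and -1.41 on arrays 1 and 3, and CDC20, the APC/C activator, had -1.55 and 0.60 there, so neither kept a sign. TTK, a checkpoint kinase, had 0.48 and 2.54 on arrays 1 and 2, and KIF23, a kinesin of the central spindle, had 1.04 and 0.25. DLGAP5, a spindle protein, had 0.45 and 0.52 on arrays 2 and 3, and FOXM1, a transcription factor of G2 to M genes, had -0.71 and -0.18 on arrays 1 and 3. CDC25B had 1.03 and -0.23 and TACC3 0.79 and 0.09 on arrays 1 and 3, and KIF2C had 0.71 and -0.04 on arrays 2 and 3. On arrays 1 and 2, CKS2 had 0.53 and -1.66, NUSAP1 -1.10 and 0.30, and ASPM -1.10 and 2.00. Of the 14 genes with 2 values at the own place, 7 had 1 above and 1 below the array median. In 5 both were above and in 2 both were below. The only features of CDC20, AURKA, KIF2C, NUSAP1, TTK, KIF23 and TACC3 lay in stretches better 1 row earlier on all 3 arrays. There CDC20 had -2.48, 4.61 and -1.02 and AURKA 0.59, 3.62 and 0.86 on arrays 1, 2 and 3. On arrays 2 and 3, KIF2C had -3.43 and -1.74, NUSAP1 -3.67 and -3.10, TTK 3.49 and -0.24, and KIF23 0.18 and -0.32. TACC3 had 0.76 and -0.48 on arrays 1 and 3.

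Single features of a gene varied nearly as much as features of different genes. The 5 genes with at least 10 features were CDK1, BIRC5, CCNA2, KIF20A and CENPE. Across the features of a gene on an array, the SD ranged from 0.76 (BIRC5, array 1) to 3.51 (KIF20A, array 2), with a median of 1.58, beside SDs of 1.93, 2.03 and 1.98 over all named features of arrays 1, 2 and 3. The 9 CDK1 features with a value on array 1 ran from -3.86 through a median of -0.11 to 4.77. On array 2 its 9 features had a median of 0.63 and on array 3 its 8 features had a median of 0.34, so the centre was near the narrow peak there. The 7 CCNA2 features on array 3 ran from -6.58 to 2.82 with a median of -1.47. The 3 UBE2S features on array 2 had an SD of 0.42 around a mean of -3.07, and those on array 3 an SD of 1.29 around -3.78. Taken 1 feature row earlier, the SD of the 5 genes was smaller in 8 of 15 gene and array pairs and larger in 7, with a median of 1.36.

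**Figure D3:**
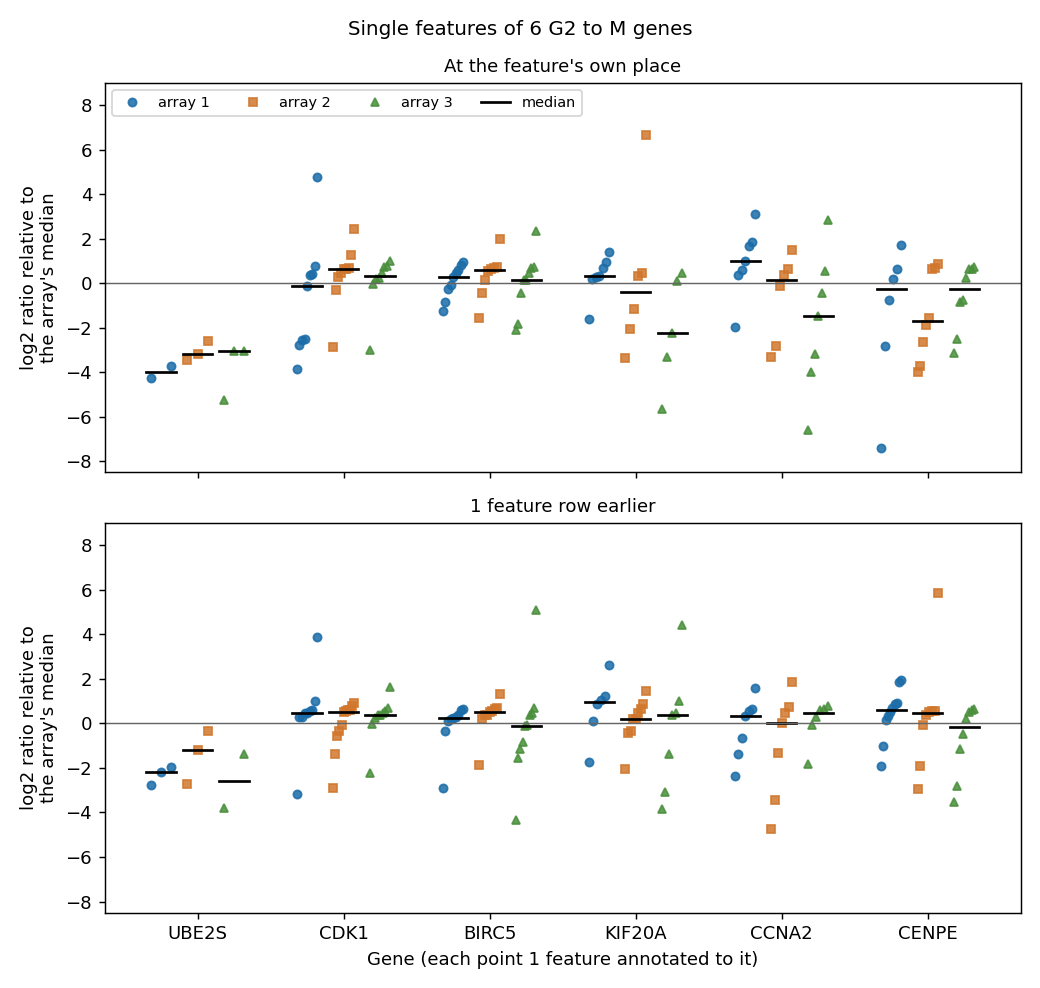
Log2 ratio relative to the array's median for every feature annotated to UBE2S, CDK1, BIRC5, KIF20A, CCNA2 and CENPE, by array, with the median as a bar. The upper panel has values at the feature's own place and the lower panel values 1 feature row earlier: UBE2S features lie below 0 in both, while features of the other genes spread on either side of 0.

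Feature values of the 40 genes were also set against the shape of the arrays. Of their values, 38 of 77 (49.4%) on array 1, 34 of 78 (43.6%) on array 2 and 33 of 76 (43.4%) on array 3 lay in the narrow peak, beside 38.7%, 35.1% and 37.9% of all features with a single symbol. Values below -2 made up 19.5%, 23.1% and 26.3%, beside 26.6%, 27.2% and 26.9%. Neither difference in shares was tested, and on array 3 the shares below -2 were nearly equal.

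Other genes of the same programme, from a list that holds condensin, cohesin, kinetochore and APC/C subunits, had a lower median. Of 121 listed genes 82 were measured, with a median of -0.35 and 32 above and 50 below the array median (39% above, beside 31.6% of tested genes). By limma 0 passed in either direction, and at an unadjusted p under 0.05 there were 16 of 82 lower (19.5%), beside 22.8% of all tested genes, and 0 higher. The smallest p belonged to STAG2, a cohesin subunit, at -1.56, -1.84 and -2.35 on arrays 1, 2 and 3 (limma adjusted p = 0.0711). ENSA, an inhibitor of the phosphatase PP2A in mitosis, had a mean of -2.03, WEE1, the kinase that inhibits CDK1, -2.21 and MAD1L1, the kinetochore partner of MAD2, -2.43. These 4, picked by smallest p, were among the 22 of 82 genes below the array median on every array, beside 33.8% of tested genes. G1 to S genes, measured for 37 of 53, had a median of -0.80 with 11 above and 26 below (29.7% above, beside the same 31.6%). At an unadjusted limma p under 0.05, 11 of 37 G1 to S genes lay lower (29.7%, beside the same 22.8%) and 0 higher. G2 to M, G1 to S and all tested genes thus had medians of -0.04, -0.80 and -0.61, a difference that was not tested.

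Some marker genes of epithelium lay as low as the lowest G2 to M genes. Log ratios give no level, so the epithelial identity of the cells could not be read from them. Of 12 epithelial genes 7 were measured, with means from -4.66 to 1.80, and 3 were above and 4 below the array median on every array. KRT18, a simple-epithelium keratin, had -4.75, -2.62 and -3.26, and LAMB3, a laminin chain of the basement membrane, had -2.09, -4.08 and -7.82, low on every array as were UBE2S and MAD2L1. The 3 above were CDH1 at 0.61, 0.58 and 0.92, EPCAM at 0.58, 3.87 and 0.95, and ITGB4 at 0.75, 4.31 and 0.09. Leukocyte markers had means from -2.60 to 0.64 (7 measured), fibroblast markers from -2.40 to 0.96 (6 measured) and endothelial and adipocyte markers from -0.42 to 0.83 (5 measured). Their part in the values of the G2 to M genes was not tested.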

How the data were processed

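RNA was measured on 3 two-colour arrays, with obscurin shRNA cells in Cy5 and control shRNA cells in Cy3. The authors deposited log2 ratios for 45220 features; the base was read from the values, since each array's highest value lay 16.61, the log2 of 100000, above its most repeated value. Scanner, normalization, centring and direction are not stated in these sources, and intensities were not analysed here, so dim features could not be filtered.

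By the platform annotation 31332 features had 1 symbol, 93 several and 13795 none; 31291 matched the GRCh38.p14 RefSeq gene table by identifier and 0 changed symbol. Each array was set to 0 at its median over all features, features of a gene were averaged per array, and 12550 genes with a value on all 3 arrays were fitted with limma 3.58.1 under R 4.3.3 and tested two-sided against 0 (intercept only, eBayes, Benjamini-Hochberg, threshold 0.05). The test was checked on simulated data. The p-values measure the spread between arrays, which the labels call independent replicates. The members, classes and lists were chosen with earlier results of these data known. Every member measured on 3 arrays was named, and 4 other G2 to M genes by smallest p. Marker genes and single features were picked after their values were seen. Alternatives changed the zero point, scaling, averaging, missing and top values, moderation, array weights, arrays used and the place of the annotation. A check of the knockdown is not reported here.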

Additional observations from a re-analysis of the deposited data

How the results depend on the processing

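Counts of genes past the threshold, 0 lower and 0 higher as reported, depended on the setting: 2161 lower and 2 higher with arrays centred on the most repeated value, 1182 and 4 with only features valued on all arrays, 935 and 6 with array weights, 740 and 2 with each stretch at its better place, 1 and 0 without moderation, and 2602 and 11 when each feature was tested. Of the G2 to M genes, 2, 3, 2 and 1 were called lower in the first 4 of these settings, which were UBE2S in all 4, MAD2L1 in the first 3 and CENPF with features valued on all arrays; the shares of all tested genes called lower there were 17.2%, 10%, 7.45% and 5.94%. UBE2S was below 0 in all 17 settings (-4.24 to -2.10), as was MAD2L1 (-4.07 to -2.07); their limma adjusted p ranged from 0.0241 to 0.261. Leaving out any 1 array, which left 2, gave 0 calls. CENPA could not be tested with top values dropped, MKI67, ANLN, PLK1 and CENPA with values 1 feature row earlier, or MKI67 and ANLN with each stretch at its better place. As deposited, class medians were 1.34 for all G2 to M, 1.34 for cyclin and CDK, 0.74 for checkpoint and APC/C, 0.83 for kinesin, 1.68 for cytokinesis, 1.03 for kinase and BIRC5, 1.81 for HMMR, the 1 spindle assembly gene measured, and 1.99 for MKI67, and the sign changed for CCNA2 at 0.91, CCNB2 at 1.37, CDK1 at 1.31, CDC25A at 0.74, BUB3 at 0.88, PTTG1 at 0.61, CENPE at 0.22, KIF11 at 1.02, KIF20A at 0.83 and PLK1 at 0.54. Centred on the tested genes' median, class medians were 0.43 for all G2 to M, 0.78 for cytokinesis, 0.13 for kinase and BIRC5 and 1.08 for MKI67, and the sign changed for CCNB2 at 0.46, CDK1 at 0.40 and KIF11 at 0.11. Centred on the most repeated value, class medians were -0.67 for all G2 to M, -0.67 for cyclin and CDK, -0.32 for cytokinesis, -0.98 for kinase and BIRC5, -0.20 for HMMR and -0.02 for MKI67, and the sign changed for CDC25C at -0.14, BUB1B at -0.47, ANLN at -0.32, PRC1 at -0.51, BIRC5 at -0.48, HMMR at -0.20 and MKI67 at -0.02. Under quantile normalization, the sign changed for CCNB2 at 0.00. With the median of features, the sign changed for CDK1 at 0.29. With values on at least 2 arrays, class medians were 0.14 for kinase and BIRC5 and 0.08 for MKI67 and FOXM1. With top values dropped, class medians were -0.37 for all G2 to M, and the sign changed for ECT2 at -0.46. With array weights, the sign changed for CDK1 at 0.06. Taken 1 feature row earlier, class medians were -0.62 for cyclin and CDK, -1.43 for checkpoint and APC/C, 0.02 for kinesin and 0.61 for kinase and BIRC5, and the sign changed for CCNB2 at 0.45, CDK1 at 0.20, CDC25C at -0.66, CKS1B at -0.57, BUB1 at -1.12, BUB1B at -1.49, PTTG1 at 0.44, CENPE at 0.02, KIF20A at 0.17, HMMR at -0.02 and CENPF at 2.69. With each stretch at its better place, class medians were 0.64 for kinase and BIRC5 and -0.16 for spindle assembly, and the sign changed for CCNB2 at 0.49, CDK1 at 0.45, CDC25C at -0.25, BUB1 at -1.12, BUB1B at -1.49, PTTG1 at 0.44, HMMR at -0.02 and CENPF at 4.54. Leaving out 1 array in turn, the lowest and highest means were -1.19 and 0.16 for CCNA2, -0.30 and 0.48 for CCNB2, -0.29 and 0.20 for CDK1, -0.15 and 1.45 for CKS1B, -0.27 and 0.71 for BUB1B, -0.80 and 0.19 for KIF11, -0.99 and 0.23 for KIF20A, 0.00 and 2.62 for ECT2, -0.49 and 0.51 for PRC1, -1.36 and -0.05 for BUB3, -1.44 and -0.13 for PTTG1, -1.04 and -0.34 for CDC25A, 0.30 and 0.63 for CDC25C, -1.21 and -0.37 for PLK1, 0.05 and 0.21 for BIRC5, 0.12 and 0.49 for ANLN and 0.17 and 0.75 for HMMR. In the settings where they could be tested, the other means of single G2 to M genes kept their sign and, beside the calls above, their side of the threshold. Some further medians changed sign. The median of all G2 to M genes was 0.05 with the median of features or with values on at least 2 arrays, and 0.02 with array weights. The cyclin and CDK median was 0.43 centred on the tested genes' median, 0.14 with the median of features and 0.02 with array weights. The median of CENPA and CENPF was 2.14, but -1.62 with top values dropped, which left CENPF alone, and -1.59 without array 2. The causes were not tested. No paired analysis was possible because each array holds both arms and there is 1 group of ratios. Signal over background could not be used to judge single features.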
